A study of Mus musculus with 37 samples.

Results

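Transcripts of 10 genes of vascular smooth muscle cells and pericytes were followed in left ventricular tissue of mice after cardiac arrest or adrenaline. The genes are Myh11, Acta2, Tagln, Cnn1, Mylk, Smtn and Myocd, which belong to the contractile programme of smooth muscle, and Rgs5, Notch3 and Pdgfrb, which mark pericytes or both kinds of vessel wall cell. They were taken by symbol from a table of 56748 genes, and all 10 were among the 16530 genes that passed the filter on low values. The genes were selected on measured values, with the level of Myh11 in the Adr group at 1 day against the Naïve group known, so that comparison is given here as a description with no test. The other comparisons with Naïve reuse the same Naïve libraries, so their tests of Myh11 are not independent of that choice.

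Smooth muscle cells wrap arteries and arterioles and set their diameter by actin and myosin contraction, which begins when myosin light chain kinase is switched on by calcium. Pericytes sit on capillaries, share receptors such as Notch3 and Pdgfrb with smooth muscle, and carry fewer contractile proteins. The contractile genes share a transcriptional control in which serum response factor binds their promoters together with the coactivator myocardin, and injured vessels are known for smooth muscle cells that lower these genes.

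Young adult C57BL/6J mice of both sexes were studied in 9 groups. Naïve mice (5 libraries) received anesthesia only and were neither intubated nor injected. Adr mice, which the sample labels call sham, were intubated and ventilated and received saline into the left ventricle followed by adrenaline. Arrest mice were also intubated and ventilated, received potassium chloride, became asystolic and were resuscitated with adrenaline and chest compressions. Each arm had 4 libraries per time, taken 0.5, 1, 3 or 7 days after the procedure. The needle passes through the ventricular wall in both arms, and the Naïve group carries neither the injection nor the ventilation, so that these cannot be told apart from adrenaline or arrest in any comparison with Naïve. Each comparison with Naïve uses the same 5 Naïve libraries.

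Values are FPKM, in which the fragments of a gene are divided by its length and by a scaling value of the library. Levels of different genes are therefore compared per length. The scaling value differed from the fragments counted on genes, most in Adr replicate 3 at 3 days (24.1 M against 17.2 M). Libraries held 13.2 to 30.2 M fragments counted on genes (median 14.9 M). Adr replicate 3 at 3 days stood apart, with 9.36% of its fragments from the mitochondrial genome against 20.8 to 30.9% in the other libraries. In that library 8 cardiomyocyte markers summed to 2291 FPKM, against 8788 to 11020 FPKM over the Naïve libraries, and 7 myofibroblast markers to 352 FPKM against 12.5 to 24.5 FPKM. One 3-day Adr sample was set aside as of poor quality in the study's methods, which with the labels do not say which one. All libraries were therefore kept, and the 3-day Adr differences that moved most without Adr replicate 3 are given with and without it. That library also enters the spread shared by all groups. Without it, the count of genes at a limma adjusted p of at most 0.05 in Arrest against Naïve rose from 531 to 910 at 0.5 days. It rose from 1176 to 1703 at 1 day, from 23 to 186 at 3 days and, in Adr at 0.5 days, from 31 to 223. It fell from 15 to 2 for Adr at 3 days against 1 day. The count of the followed genes changed in 0 of 20 tested comparisons. Numbers in the sample descriptions ran from 116 to 127 in Naïve. All were lower, without overlap, in Arrest at 1 day (70 to 95) and 3 days (90 to 112). The same held in Adr at 1 day (71 to 102), 3 days (63 to 87) and 7 days (92 to 115). In the remaining groups they overlapped the Naïve range, and their meaning is not given.

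Levels differed widely among the 10 genes. Rgs5, a regulator that shortens G protein signals and a defining pericyte gene, had a median of 140 FPKM over the 37 libraries (63.2 to 199.9). Acta2, smooth muscle actin, followed with 46.9 FPKM (9.49 to 124), ahead of Smtn (smoothelin, bound to contractile actin) with 18.2 FPKM and Pdgfrb (the receptor for platelet-derived growth factor B) with 10.1 FPKM. Myocd, Notch3, Myh11 and Mylk had medians of 4.76, 4.72, 3.33 and 2.05 FPKM. Cnn1, the actin-binding protein calponin, had 0.898 FPKM, from 0 to 126 fragments per library. Tagln, also called SM22 and usually counted among the defining genes of smooth muscle, was almost undetected, with a median of 0.195 FPKM and 0 to 45 fragments per library.

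**Figure D1:**
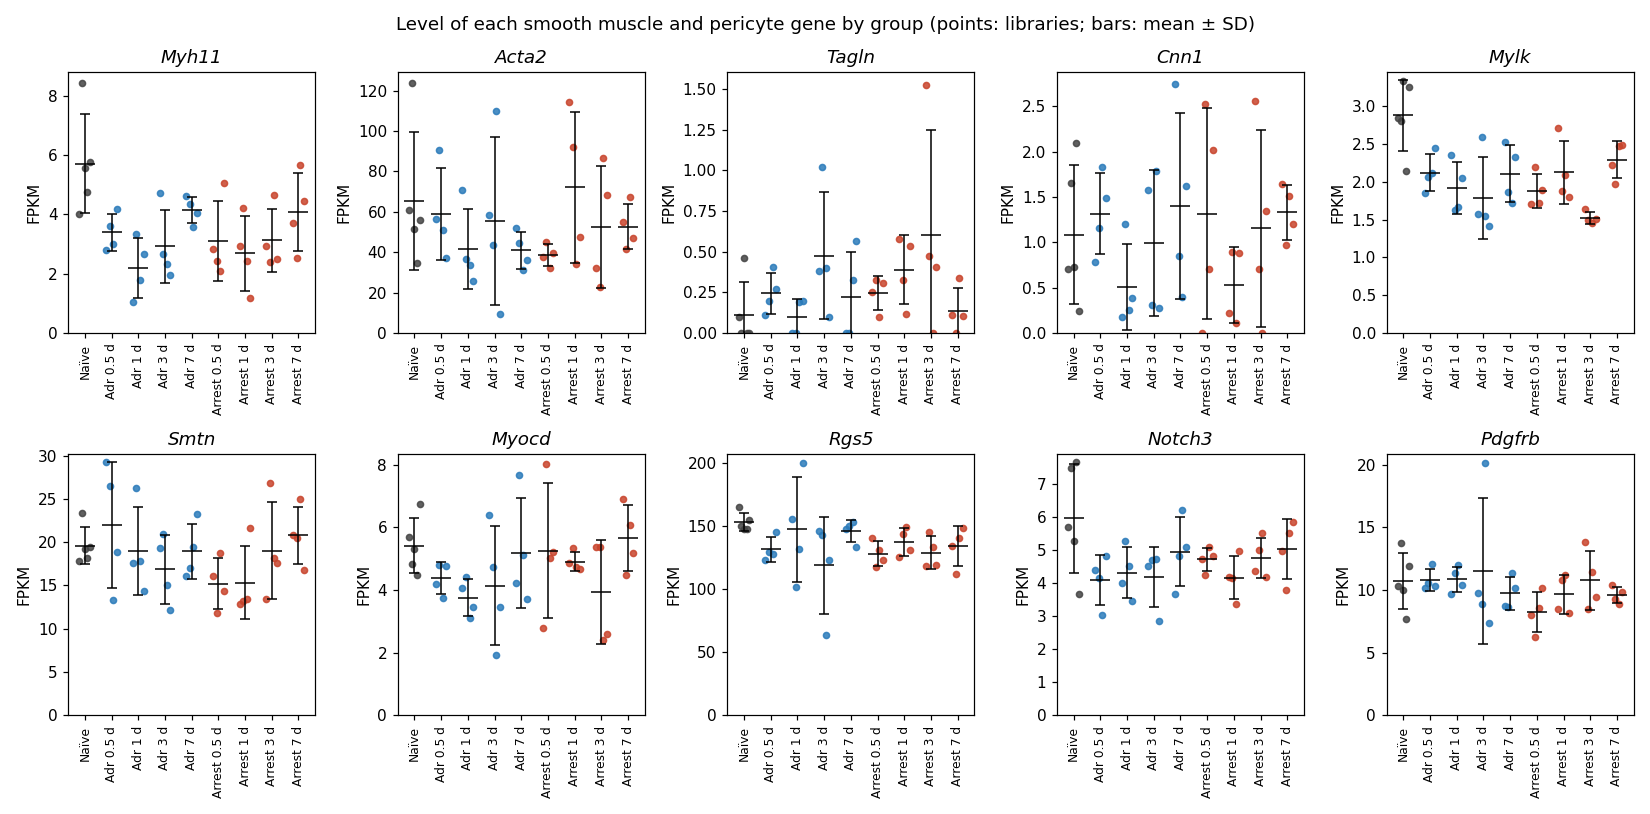
FPKM of each of the 10 genes (vertical axes, each starting at 0) in the 9 groups, with 1 point per library and black bars for the mean ± SD (5 Naïve libraries and 4 in each other group). Myh11 and Mylk have their highest group mean in Naïve, the Rgs5 points of Naïve lie in the narrow range of 148 to 165 FPKM, and Acta2, Cnn1 and Tagln spread widely inside most groups.

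Myh11 encodes the myosin heavy chain of smooth muscle and is among its most specific markers. In the Naïve libraries it stood at 4.03, 8.44, 5.58, 4.76 and 5.77 FPKM. At 1 day the 4 Arrest libraries held 2.93, 4.23, 2.42 and 1.18 FPKM. Arrest replicate 2 overlapped the lowest Naïve library and the other 3 lay below all of them. The mean fell from 5.72 ± 1.67 FPKM (SD, n = 5) to 2.69 ± 1.26 FPKM (SD, n = 4), a log2 difference of -0.90 on the FPKM + 1 scale (SE 0.25, limma adjusted p = 0.0227), a scale that understates changes of genes at a few FPKM. On the recovered fragments the difference was -1.21 (limma voom adjusted p = 0.0214). Among all genes tested 3.24% passed the threshold of an adjusted p of at most 0.05 and were lower in this comparison, and Myh11 was the 1 of the 10 genes that did. The call was lost when Naïve replicate 2 was left out (adjusted p = 0.0638), without Arrest replicate 3 (0.0671) or 4 (0.0979), with only these groups in the model (0.0937), and with the description number as a covariate, where the difference was -0.52 (0.578). The Naïve libraries here are those of the comparison that guided the choice, so the adjusted p for Myh11 is not independent of it. Bulk tissue cannot tell fewer smooth muscle cells from less RNA per cell.

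At the other Arrest times Myh11 had lower means than Naïve that did not pass the test. At 0.5 days the libraries stood at 2.83, 2.44, 2.08 and 5.07 FPKM (log2 difference -0.73, SE 0.25, limma adjusted p = 0.095), and replicate 4 lay within the Naïve range. Without that replicate the difference was -0.93 with an adjusted p of 0.048, which adds no support because the replicate was singled out by its high value. At 3 days the values were 2.95, 2.38, 4.66 and 2.49 FPKM (-0.70, adjusted p = 0.185). By 7 days they were 3.71, 2.52, 5.68 and 4.44 FPKM (-0.40, adjusted p = 0.967), which overlaps the Naïve range in 2 of 4 libraries.

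In the Adr arm the Myh11 values were 2.81, 3.61, 3.0 and 4.18 FPKM at 0.5 days, where 3 of 4 libraries lay below all Naïve libraries. At 1 day, the comparison that chose the gene, they were 1.03, 3.33, 1.77 and 2.66 FPKM and all 4 lay below every Naïve library. The log2 difference there was -1.09, and it ran from -1.41 to -0.84 over the alternative settings. At 3 days the values were 4.72, 2.67, 2.31 and 1.97 FPKM and at 7 days 4.62, 4.35, 3.58 and 4.04 FPKM. The differences at 0.5, 3 and 7 days were -0.59, -0.79 and -0.35 (limma adjusted p = 0.265, 0.18 and 0.932). In the order of group means Naïve stood first and Adr at 1 day last, with 2.2 FPKM, and no gap between neighbours in that order exceeded the SD of the difference.

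Mylk encodes myosin light chain kinase, the enzyme that starts contraction, and its isoforms also occur outside smooth muscle. Naïve libraries held 2.85, 2.81, 3.33, 2.15 and 3.26 FPKM. Arrest libraries at 3 days held 1.64, 1.49, 1.45 and 1.51 FPKM, close together and all below the lowest Naïve library. The mean fell from 2.88 ± 0.472 (SD, n = 5) to 1.52 ± 0.0807 FPKM (SD, n = 4), a log2 difference of -0.61 (SE 0.12, limma adjusted p = 0.0224). In that comparison 0.0423% of all tested genes were called lower, and Mylk was the only one of the 10. With Adr replicate 3 at 3 days outside the model, the genes called lower rose from 7 to 75 of 16530. When single libraries of the compared groups were dropped, the adjusted p exceeded 0.05 in 6 of 9 cases (up to 0.0731) and was 0.0811 once each library's trend with gene length had been removed.

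At 0.5 days Mylk stood at 1.70, 2.20, 1.72 and 1.90 FPKM in Arrest, where 3 of 4 libraries lay below all Naïve libraries, and it fell by 0.42 on the log2 scale (SE 0.12, limma adjusted p = 0.0469). It was again the only one of the 10 genes called lower, against 1.46% of all tested genes. This call was lost for 8 of the 9 libraries when dropped singly, and with the length trend removed (-0.35, adjusted p = 0.12). At 1 day the Arrest values were 2.72, 1.88, 2.10 and 1.81 FPKM (-0.31, adjusted p = 0.115), and with sample quality weights the difference was -0.36 (adjusted p = 0.0391). The mean of 2.29 ± 0.243 FPKM (SD, n = 4) at 7 days was again nearer to Naïve (-0.23, adjusted p = 0.967).

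Adr hearts also had lower Mylk means at every time, from 1.79 to 2.12 FPKM. The log2 differences were -0.31, -0.49 and -0.32 at 0.5, 3 and 7 days (limma adjusted p = 0.237, 0.127 and 0.708), and at 1 day -0.41, given without a test. Adr replicate 2 at 3 days, at 2.60 FPKM, lay above the other 3 (1.42 to 1.58 FPKM), and without it the 3-day difference was -0.61 (adjusted p = 0.0308). The library left out is the one that opposes the difference, so this lower p adds no support. Mylk is 11263 bases long in the table, the longest of the 10 genes, and Myh11 has 7599 bases.

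Acta2 varied more inside groups than between them. Naïve libraries ranged from 34.7 to 124 FPKM, and Arrest libraries at 1 day held 114, 92.3, 34.2 and 47.5 FPKM, the highest group mean (72.1 ± 37.6 FPKM, SD, n = 4). The lowest mean was that of Arrest at 0.5 days, 38.5 ± 5.34 FPKM. Differences from Naïve ran from -0.63 (SE 0.46, limma adjusted p = 0.502) at 0.5 days to 0.11 (0.931) at 1 day in Arrest and from -0.56 to -0.09 in the tested Adr comparisons (adjusted p from 0.63 to 0.964). In the Adr group at 3 days the 4 libraries spanned 9.49 to 110 FPKM, with the highest value in replicate 3. Without that library the 3-day difference was -0.999 (SE 0.46, adjusted p = 0.65), against -0.53 with it. Acta2 can also be switched on in myofibroblasts, and its coding sequence is nearly the same as those of Acta1 and Actc1, the actins of striated muscle, whose medians were 164 and 4570 FPKM, and of Actg2, with 0.522 FPKM. Reads could be split between them by the authors' counting, so the Acta2 level is uncertain. As a description over 37 libraries of shared preparation, the Pearson r of Acta2 was 0.442 with Actc1, 0.19 with Acta1 and 0.347 with Actg2 after subtraction of group means.

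Tagln was listed at 0 in 9 libraries, 3 of them Naïve. For this gene a count of 0 allows up to 0.0464 to 0.117 FPKM, depending on the scaling value of the library, for counting error only. Group means were 0.0956 to 0.6 FPKM, and the highest single value was 1.52 FPKM in Arrest replicate 1 at 3 days. Log2 differences from Naïve in the tested comparisons ran from 0.04 to 0.46, none past the threshold (lowest limma adjusted p 0.274, Arrest at 3 days). In the table's coordinates 56.3% of the span of Tagln overlaps Gm48529 on the opposite strand, which had a median of 0.212 FPKM. Whether fragments were counted by strand is not given in the sources used here, so both genes are uncertain, and the part of the overlap in the low Tagln level was not tested.

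Cnn1 was as variable, at 0.245 to 2.1 FPKM over the Naïve libraries and 0 to 2.56 FPKM over the Arrest libraries. Its means at 1 day, 0.529 ± 0.42 FPKM in Arrest and 0.503 ± 0.476 FPKM in Adr (SD, n = 4), were the lowest of the 9 groups, against 1.08 ± 0.764 FPKM in Naïve (SD, n = 5). The Arrest difference of -0.41 (SE 0.35) had a limma adjusted p of 0.549. Smtn stood at 17.9 to 23.3 FPKM in Naïve and, at 1 day in Arrest, at 12.9, 13.2, 13.5 and 21.6 FPKM. Of those 4 libraries 3 lay below all Naïve libraries and the fourth inside their range (-0.36, SE 0.21, adjusted p = 0.31). At 0.5 days the Smtn difference in Arrest was -0.36 as well (adjusted p = 0.37).

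Myocd encodes myocardin, which in the heart is made by cardiomyocytes as well as by smooth muscle. Its Naïve mean was 5.41 ± 0.875 FPKM (SD, n = 5), and group means ran from 3.75 FPKM (Adr at 1 day) to 5.66 FPKM (Arrest at 7 days). In Adr at 1 day the values of 4.07, 4.40, 3.10 and 3.45 FPKM all lay below the lowest Naïve library (4.48 FPKM), without a test. In Arrest at 3 days the libraries split into 5.36 and 5.36 against 2.40 and 2.59 FPKM (-0.43, SE 0.23, limma adjusted p = 0.404). In Adr at 3 days the difference was -0.39 with replicate 3 and -0.15 without it (adjusted p = 0.438 and 0.931). Of 10 genes that act with or against myocardin, 9 were tested, and Klf4, a repressor of the contractile genes in injured smooth muscle that many other cells also switch on, rose from 24 ± 6.09 (SD, n = 5) to 48.1 ± 19.7 FPKM (SD, n = 4) in Arrest at 1 day (0.91, SE 0.28, adjusted p = 0.0426). That call was lost in 7 of 13 alternative settings, among them the length trend removed (adjusted p = 0.0875). No other gene of that list passed in any tested comparison, and its median difference in Arrest at 1 day was -0.11 against 0.03 for all genes.

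Rgs5 had the tightest Naïve values, 165, 150, 148, 148 and 155 FPKM. Arrest libraries at 0.5 days (140, 117, 131 and 123 FPKM) and at 3 days (118, 145, 134 and 119 FPKM) all lay below the lowest of them, as did Adr libraries at 0.5 days (123, 130, 128 and 145 FPKM) and 3 days (146, 143, 63.2 and 123 FPKM). The log2 differences were -0.26, -0.25, -0.22 and -0.43, and with quantile normalization -0.42, -0.38, -0.38 and -0.47 (limma adjusted p = 0.1, 0.242, 0.205 and 0.161). Exact two-sided permutation tests of these comparisons gave p = 0.0159, the smallest that 4 against 5 libraries allow with this test. That value follows from the complete separation by which these comparisons were listed, so it adds no support. In the other tested comparisons with Naïve the exact permutation p was 0.0476 in Arrest at 1 and 7 days and 0.302 in Adr at 7 days. For the listed comparisons the limma adjusted p-values over all genes were 0.437, 0.539, 0.596 and 0.242. The 3-day Adr difference was -0.16 (adjusted p = 0.847) without replicate 3. With that library outside the model the other limma adjusted p-values were 0.213, 0.299 and 0.373 in the same order. At 7 days the Arrest values were 112 to 149 FPKM and the Adr values 134 to 153 FPKM.

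Every library of the group lay below every Naïve library for 1 of the 10 genes in Arrest at 0.5 days (Rgs5), where the share over all tested genes was 3.71%. The count was 0 at 1 day (4.80% of all genes), 2 at 3 days (Mylk and Rgs5, 1.78%) and 0 at 7 days (0.659%). In Adr it was 1 at 0.5 days (Rgs5, 2.97%), 2 at 1 day (Myh11 and Myocd, 2.74%, a comparison used in the choice of genes), 1 at 3 days (Rgs5, 1.08%) and 0 at 7 days (0.853%). The threshold of the fit over all genes was passed by 0 of the 10 genes in Arrest at 7 days (0% of all genes) and in Adr at 0.5 days (0.109%), 3 days (0%) and 7 days (0%), although 3, 4 and 1 of them had an unadjusted p of at most 0.05 in Adr at 0.5, 3 and 7 days and 0 in Arrest at 7 days. The shares of all tested genes at that unadjusted threshold were 14%, 13.9%, 6.15% and 5.15%.

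The differences from Naïve leaned to the negative side in both arms. In Arrest 8, 8, 8 and 6 of the 10 genes were below 0 in time order, with medians of -0.30, -0.23, -0.25 and -0.16, against medians of 0.01 to 0.03 over all tested genes. Of all tested genes 45.02% to 46.62% were below 0 in these comparisons. In Adr the median was -0.16 at 0.5 days (6 genes below 0), -0.40 at 3 days (8 genes) and -0.10 at 7 days (8 genes). Without replicate 3 the 3-day median was -0.27 (9 genes below 0). Over all tested genes the Adr medians at 0.5, 3 and 7 days were 0.037, 0.016 and 0.0085, with 43.85%, 46.38% and 46.35% of genes below 0. At 1 day in Adr 9 genes were below 0, with a median of -0.39, which is no result since Myh11 there guided the choice. All of these share the 5 Naïve libraries.

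**Figure D2:**
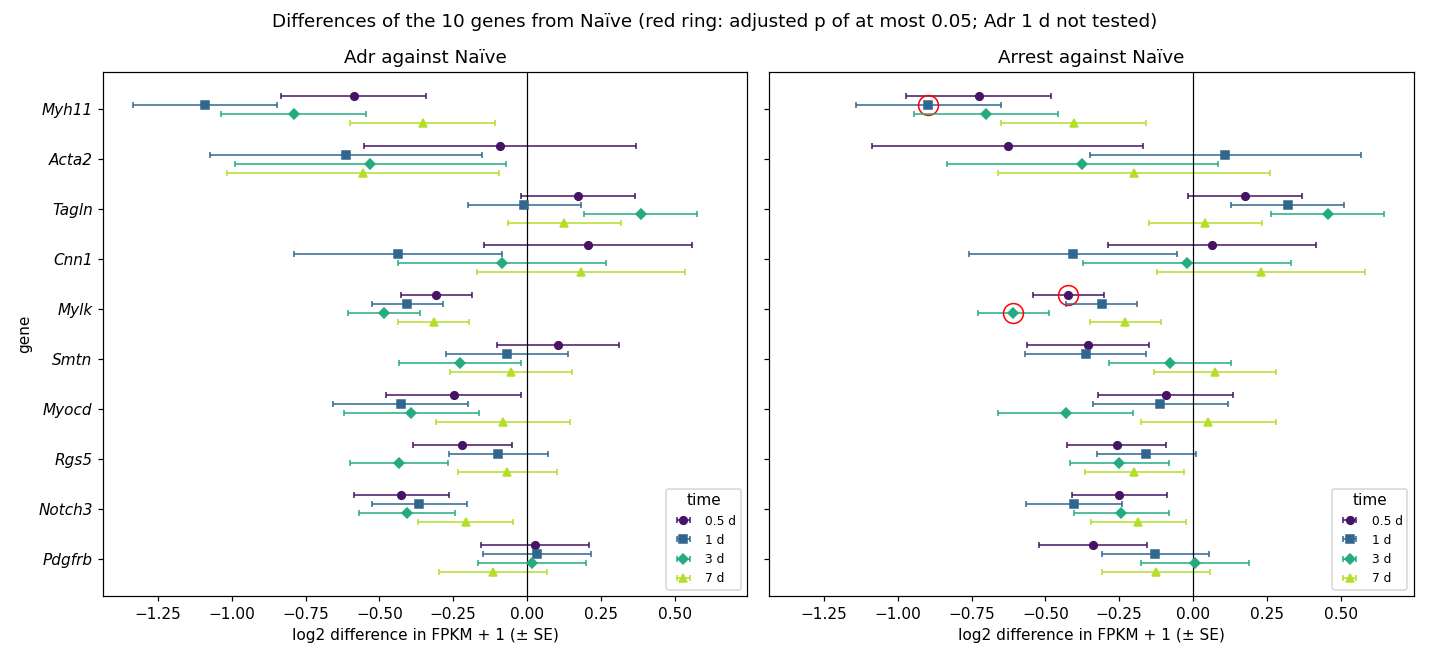
Difference of each gene from Naïve as log2(FPKM + 1) with its SE (horizontal axes), for Adr (left) and Arrest (right) at 4 times. Red rings mark Myh11 in Arrest at 1 day and Mylk in Arrest at 0.5 and 3 days, the tested differences with a limma adjusted p of at most 0.05. Most points lie left of 0.

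Notch3, the Notch receptor of mural cells, had its highest mean in Naïve (5.95 ± 1.65 FPKM, SD, n = 5) and means of 4.1 to 5.02 FPKM elsewhere. The widest tested differences were -0.43 in Adr at 0.5 days, -0.41 in Adr at 3 days and -0.40 in Arrest at 1 day (SE 0.16, limma adjusted p = 0.22, 0.259 and 0.127). Without Naïve replicate 5, the lowest Naïve library at 3.67 FPKM, the Arrest difference was -0.54 (adjusted p = 0.0382). Leaving out the lowest Naïve library widens the difference by construction, so this value adds no support. Of its pathway, 13 Notch ligands, receptors and targets were tested and 0 passed in any tested comparison, with a median of -0.03 in Arrest at 1 day.

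Pdgfrb passed no test either. Its Naïve mean was 10.7 ± 2.26 FPKM (SD, n = 5) and its lowest mean that of Arrest at 0.5 days, 8.25 ± 1.61 FPKM (SD, n = 4), a difference of -0.34 (SE 0.18, limma adjusted p = 0.328). Adr replicate 3 at 3 days held the highest value, 20.1 FPKM, where the other 3 libraries held 7.34 to 9.79 FPKM. The 3-day difference was 0.02 with that library and -0.27 without it (adjusted p = 0.989 and 0.757). The 5 other genes for ligands and receptors of this growth factor family and the 8 other tested genes for RGS proteins gave 0 calls, as did 11 tested vasoactive receptors.

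Arrest and Adr were compared directly at each time. These arms differ in potassium chloride, asystole and chest compressions, which cannot be told apart. The differences do not use the Naïve libraries, which enter only the estimate of the spread shared by all groups. None of the 10 genes passed (limma, 0 of 10 at each time), where 0% of all genes did at 0.5, 1 and 3 days and 0.00605% at 7 days. The 1-day contrast shares the Adr libraries in which Myh11 was known. At an unadjusted p of at most 0.05 there was 1 gene at 0.5 days, Smtn, and 0 at the other times, while 3.86%, 6.59%, 5.37% and 2.52% of all genes passed that threshold in time order. Smtn was lower in Arrest by 0.46 on the log2 scale (SE 0.22, adjusted p = 1). Myh11 differed between the arms by -0.14, 0.19, 0.09 and -0.05 at the 4 times (SE 0.26). The widest difference was that of Acta2 at 1 day, 0.72 (SE 0.48, adjusted p = 0.83), in groups whose values overlapped. Pdgfrb at 0.5 days stood at 8.01, 6.24, 8.60 and 10.1 FPKM in Arrest and at 10.2 to 12.1 FPKM in Adr (-0.36, SE 0.19, adjusted p = 1).

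Changes between neighbouring times were also tested. None of the 10 genes passed between 0.5 and 1 day, 1 and 3 days or 3 and 7 days in Arrest (0%, 0.175% and 0% of all genes) or in Adr (0%, 0.0907% and 0%), and none passed a test of a difference in change between the arms (0 of 10 genes and 0% of all genes in each of 3 interaction tests). At an unadjusted p of at most 0.05, Mylk was lower at 3 days than at 1 day in Arrest (-0.30, SE 0.13, limma adjusted p = 0.317) and higher at 7 days than at 3 days (0.38, SE 0.13, 0.503). Tagln was lower at 7 days than at 3 days in Arrest (-0.41, adjusted p = 0.667), and Rgs5 was higher at 7 days than at 3 days in Adr (0.37, adjusted p = 0.893). Of all genes 12.2% passed that unadjusted threshold between 1 and 3 days in Arrest, 7.42% between 3 and 7 days in Arrest and 5.29% between 3 and 7 days in Adr. The Adr comparisons and the interactions that include 1 day use the Adr libraries in which Myh11 was known.

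Other genes listed for the vessel wall moved in both directions, in bulk tissue that does not show which cells their transcripts came from. Of 20 further contractile genes of smooth muscle, 0 rose and 2 fell in Arrest at 0.5 days, and 2 rose and 3 fell at 1 day. Of all tested genes 1.75% rose and 1.46% fell at 0.5 days, and 3.88% rose and 3.24% fell at 1 day. Ppp1r12b, a regulatory subunit of myosin phosphatase, fell from 16.1 ± 1.75 (SD, n = 5) to 9.1 ± 1.7 FPKM (SD, n = 4) at 0.5 days and to 8.81 ± 0.949 FPKM at 1 day (log2 differences -0.77 and -0.80, limma adjusted p = 0.0239 and 0.00926). Itga8, an integrin subunit, fell by 0.59 at 0.5 days (adjusted p = 0.0404), a call lost in 8 of 12 settings. Pcp4l1, a small protein related to calmodulin regulators, rose from 98.2 ± 11.6 to 221 ± 59.9 FPKM at 1 day (1.12, adjusted p = 0.00763). The median of the list was -0.11 at 1 day, against 0.03 for all genes.

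Among 16 further pericyte genes, 1 passed. Abcc9, a subunit of the potassium channel that closes on ATP in mural cells and cardiomyocytes, fell from 33.4 ± 4.35 FPKM in Naïve (SD, n = 5) to 16.2 ± 3.05 at 0.5 days and 14.4 ± 2.2 FPKM at 1 day in Arrest (SD, n = 4). Its log2 differences were -1.01 and -1.16 (limma adjusted p = 0.0189 and 0.00369), and they were -0.96 and -1.07 with the length trend removed (0.0321 and 0.00968). The list's medians were -0.02 and -0.07. With the description number as a covariate the 1-day calls of Ppp1r12b, Pcp4l1 and Abcc9 were lost (adjusted p = 0.459, 0.136 and 0.355), as were the 0.5-day calls of Ppp1r12b and Abcc9 (0.0767 and 0.0627). The 0.5-day call of Ppp1r12b was also lost with the length trend removed (0.051) and for 3 of 9 libraries dropped singly.

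Endothelial and arterial markers moved beside these genes. Of 10 endothelial markers, 2 rose and 1 fell in Arrest at 0.5 days and 2 rose and 2 fell at 1 day. Kdr, the main receptor for vascular endothelial growth factor, fell from 24.3 ± 1.89 (SD, n = 5) to 12.2 ± 2.07 and 12.6 ± 3.28 FPKM (SD, n = 4; -0.95 and -0.92, limma adjusted p = 0.0181 and 0.0107). Emcn, a surface glycoprotein of veins and capillaries, rose by 0.60 at 0.5 days (adjusted p = 0.0107) and Esam, an adhesion molecule of endothelial junctions, by 0.52 at 1 day (0.0327, lost in 7 of 13 settings). The 10 markers summed to 237 to 260 FPKM in Naïve and 213 to 306 FPKM in Arrest at 1 day. Among 8 arterial wall markers, Eln (elastin) rose from 6.91 ± 1.5 to 16 ± 3.73 FPKM at 1 day (1.10, adjusted p = 0.00786), and Ltbp4, which binds latent TGF-beta, fell by 0.54 at 0.5 days (adjusted p = 0.023). With the description number as a covariate the 1-day calls of Kdr and Eln were lost (adjusted p = 0.0976 and 0.324). Of all 150 tested list genes outside the 10, 0 passed in the other tested comparisons.

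Markers of other cells varied between libraries. Myofibroblast markers (7 genes) summed to 12.5 to 24.5 FPKM in Naïve, 9.77 to 13.4 FPKM in Arrest at 1 day and 16.4 to 199 FPKM in Arrest at 3 days. At 1 day in Arrest 1 of them, Fap, a surface protease of activated fibroblasts, fell by 0.61 (limma adjusted p = 0.0269), a call lost in 5 of 12 settings and, for single libraries dropped, in 5 of 9 cases. Atrial markers (5 genes, of which 2 were at 0 in every Naïve library) summed to 13.8 to 32.4 FPKM in Naïve, 32.7 to 72.7 FPKM in Arrest at 1 day and 30.02 to 693 FPKM in Adr at 1 day, where Myh11 was lowest. Adipocyte markers (5 genes, 3 at 0 in every Naïve library) reached 2.66 FPKM in Naïve and 31.8 FPKM in Adr at 1 day. In Arrest at 1 day, 1 of 5 Schwann cell markers, Kcna1, an axonal potassium channel, fell by 0.63 (adjusted p = 0.0239, lost in 3 of 12 settings and 4 of 9 such cases). With the description number as a covariate both calls were lost (0.185 for Fap and 0.169 for Kcna1). Of the tested fibroblast (8), cardiomyocyte (8), red blood cell (5), leukocyte (6), atrial (4), adipocyte (5) and actin family (5) genes 0 passed. The summed cardiomyocyte markers were nevertheless higher in every Arrest library at 1 day (11280 to 13960 FPKM) than in any Naïve library (8788 to 11020 FPKM). They were also higher in every Adr library at 0.5 days (11290 to 12310 FPKM). Fibroblast markers summed to 1051 to 1251 FPKM in Arrest and 1063 to 1715 FPKM in Adr at 1 day, against 847 to 1036 FPKM in Naïve. Leukocyte markers summed to 34.1 to 44.2 FPKM in Arrest at 0.5 days against 15.7 to 23.0 FPKM in Naïve. They also lay above the Naïve range in Arrest at 1 day (24.8 to 36.8 FPKM) and Adr at 3 days (23.2 to 230 FPKM). The part of these markers in the levels of the 10 genes was not tested.

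Gene length moved with these differences. In Arrest at 1 day the 2017 genes of at least 7599 bases and a mean of at least 1 FPKM had a median difference of -0.12 and 68.2% of them were below 0, against 0.08 and 41.3% for 9489 shorter genes. The corresponding medians were -0.07 and 0.06 at 0.5 days and -0.09 and 0.05 at 3 days in Arrest. With each library's length trend removed, Myh11 in Arrest at 1 day was -0.83 (limma adjusted p = 0.0436) and stayed past the threshold, while both Mylk calls were lost.

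**Figure D3:**
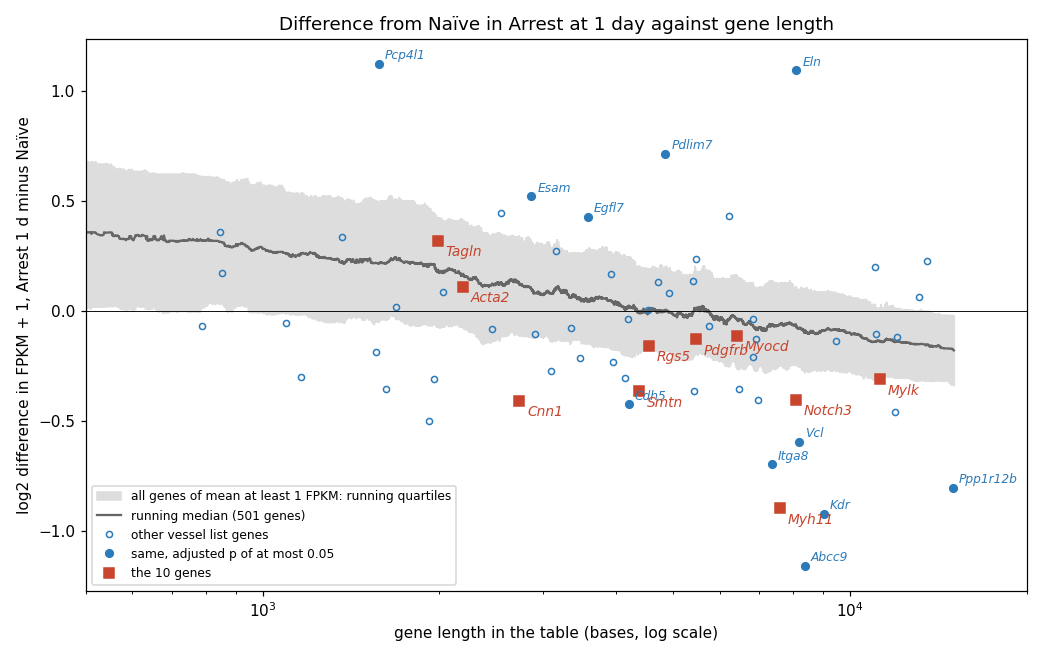
Difference in log2(FPKM + 1) between Arrest at 1 day and Naïve (vertical axis) against gene length in bases (horizontal log axis). The grey line and band are the running median and quartiles of all genes with a mean of at least 1 FPKM, red squares are the 10 genes, and blue points are other vessel genes, filled where the limma adjusted p is at most 0.05. The grey line falls with length, Myh11 at -0.90 lies below the band, and Mylk at -0.31 lies inside it.

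The measured values of the 10 genes did not vary as a block from library to library. Pairs with Tagln or Cnn1 are limited by counting error at few fragments, which draws r towards 0. Pearson correlations of log2(FPKM + 1) after subtraction of group means, over 37 libraries that share preparation and scaling, had a median of 0.118 in 21 contractile pairs (-0.147 to 0.429), -0.118 in the 3 pairs among Rgs5, Notch3 and Pdgfrb, and 0.107 in 21 pairs across. The highest value was that of Smtn with Notch3 (r = 0.505, rho = 0.504). The lowest, Rgs5 with Pdgfrb (r = -0.488), was -0.182 without Adr replicate 3 at 3 days. Myh11 and Acta2 correlated with r = 0.323 within groups.

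**Figure D4:**
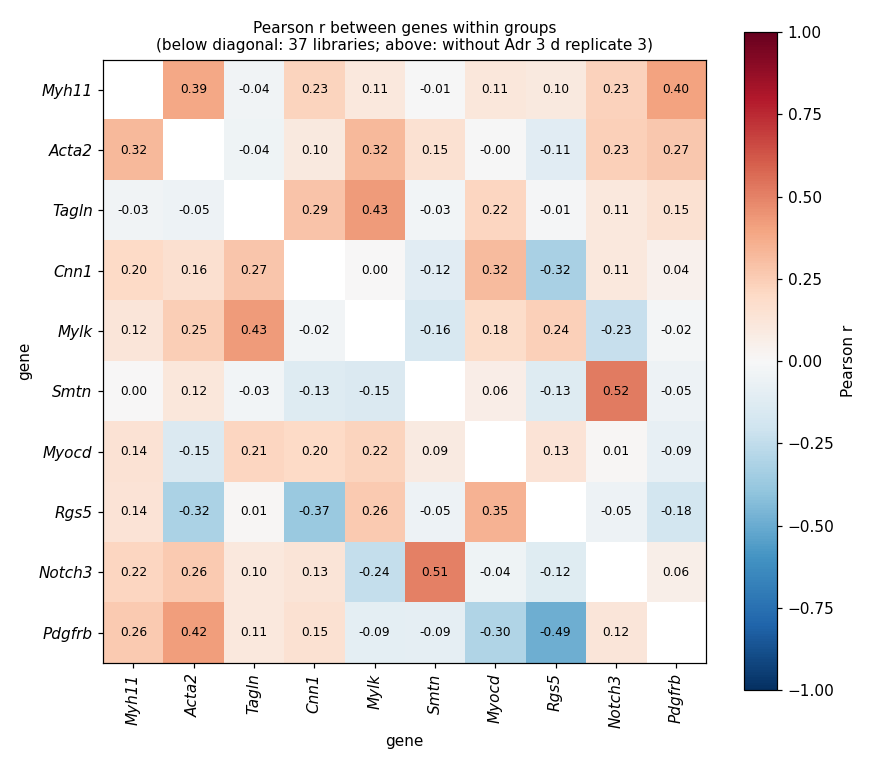
Pearson r between each pair of the 10 genes after subtraction of group means, below the diagonal over 37 libraries and above it without Adr replicate 3 at 3 days. Colours run from -1 (blue) to 1 (red). Few pairs exceed 0.4, among them Smtn with Notch3 at 0.51.

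Genes outside the set were ranked by their correlation with the mean z-score of 6 contractile genes (Myh11, Acta2, Tagln, Cnn1, Mylk and Smtn) among 11540 genes with a mean of at least 1 FPKM, over 37 libraries. The 8 highest were Palld, Cdh13, AU040320, Lrp11, Slc8a1, Camk2d, Myl9 and Cav1. Palld, an actin-bundling protein, reached r = 0.649 (rho = 0.659) and 0.572 without the 2 libraries farthest from the median score (Adr replicate 4 at 3 days and Naïve replicate 2). Myl9, the regulatory light chain of smooth muscle myosin, reached 0.58 and fell to 0.322 without those libraries, and Cav1, the main protein of caveolae, to 0.417 from 0.57. For Rgs5, Notch3 and Pdgfrb the highest were Lims1, Pdzd3, Rgs4, Nxpe4, Itpkb, Carns1, Palld and Gm37829, with Lims1, an adaptor of integrin signalling, at 0.659 (0.53 without the same libraries). Depth and gene length are shared by all points of these correlations.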

How the data were processed

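The authors sequenced left ventricular RNA as paired-end libraries, aligned reads with HISAT2 and deposited 1 table of FPKM values for 56748 genes in 37 libraries. Genome build, annotation, counting tool and strand are not given in the sources used here. Of 52073 gene IDs shared with GENCODE on GRCm38, 1472 have the same start and end, so no coordinates are printed. FPKM times gene length gave whole fragments (tolerance 0.01) in 100% of the values, 13.2 to 30.2 M per library, which limits the precision of low values. The deposited FPKM were rescaled by median ratios (factor 1.013 in every library), and levels are printed as deposited. Because the factor was equal, this step left the ratios between libraries unchanged.

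Differences were fitted with limma 3.58.1 (R 4.3.3) on log2(FPKM + 1), with 1 mean per group over all libraries and a mean-variance trend, for genes of at least 0.5 FPKM in at least 4 libraries. Benjamini-Hochberg adjustment covered all tested genes within a comparison (threshold 0.05). The fit was tested on simulated data. Single genes were also compared by exact two-sided permutation tests (scipy). The labels do not say that each library came from a separate mouse, so p-values measure the spread between these samples, which may be technical.

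Alternatives were the scaling, a pseudocount of 0.1, other filters, the length trend removed per library (loess, span 0.5), sample quality weights, the description number as covariate, a replicate block, a fit of the compared groups only, leaving Adr replicate 3 at 3 days outside the model, voom, and leaving out each library. The 10 genes and all gene lists were chosen with earlier results of these data known. All 10 genes are named throughout. From other lists, up to 2 called genes with the widest differences per comparison are named, and 8 genes by correlation with each score.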

Additional observations from a re-analysis of the deposited data

Results flagged for a closer look

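The values of each of the 10 genes were screened in each of the 9 groups for a library far from the rest of its group by Dixon's criterion at 95%, 90 screens in which chance flags about 1 in 20. It marked 4 libraries. Tagln in Naïve replicate 3 stood at 0.459 FPKM, against 0 to 0.0964 FPKM in the other 4. Mylk in Adr replicate 2 at 3 days stood at 2.6 FPKM, against 1.42 to 1.58 FPKM. Smtn in Arrest replicate 4 at 1 day stood at 21.6 FPKM, against 12.9 to 13.5 FPKM. Notch3 in Adr replicate 4 at 3 days stood at 2.84 FPKM, against 4.5 to 4.72 FPKM. These are 4 different libraries, and none of the 10 genes passed a test of a difference in change between the arms (limma).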

How the results depend on the processing

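The count of the 10 genes past the threshold was 1 in Arrest against Naïve at 0.5, 1 and 3 days and 0 in the other 17 tested comparisons. At 0.5 days it was 0 with quantile normalization, scaling by counted fragments, a pseudocount of 0.1, no filter, the length trend removed, the description number, the replicate block or only the compared groups. At 1 day it was 2 with quality weights and 0 with the description number, the replicate block or only the compared groups. At 3 days it was 0 with the length trend removed, quality weights, the description number, the replicate block or only the compared groups. With 1 library left out it ran from 0 to 1 at 0.5 days, 0 to 2 at 1 day, 0 to 1 at 3 days and, in Adr at 3 days, 0 to 1. With the replicate block, Myh11 in Arrest at 1 day was -0.89 (limma adjusted p = 0.058) and Mylk -0.39 at 0.5 days and -0.57 at 3 days (0.126 and 0.0829). Same-numbered libraries of different groups had a median r of 0.0017 over 144 pairs (20 above 0.1). Differently numbered ones had a median r of -0.0011 over 464 pairs (71 above 0.1). Such correlations cannot show whether libraries of the same number were paired or handled together. Over all alternatives Myh11 in Arrest at 1 day ran from -1.21 to -0.52 (kept in 11 of 14 settings and 6 of 9 fits without 1 library). None of the 18 named differences past the threshold changed sign under any alternative. That is a weak check, since they were picked for passing and each alternative refits nearly the same libraries. The cause of the lost calls was not tested. Depth limits Tagln and Cnn1, with as few as 0 fragments in a library.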
